A study of Homo sapiens with 4 samples.

Results

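The BCL2 family is the set of related proteins that decides whether the outer mitochondrial membrane is breached during apoptosis. The 10 genes described here were taken from a fixed list by symbol, 5 that protect cells (BCL2, BCL2L1, BCL2L2, MCL1 and BCL2A1) and 5 that promote death (BAK1, BCL2L11, BID, BAD and BIK), out of 28058 genes in the deposited count table, and all 10 were present in it. They were followed in poly(A) RNA of 4 samples labelled SH-SY5Y, a human neuroblastoma line. The 2 control samples received no treatment. The 2 SWT samples received shock wave treatment, which the sample protocols describe as 300 impulses of 0.08 mJ/mm2 at 3 Hz, applied at 7 cm to medium-filled flasks in a bath at 37 °C. Cells of all groups were grown in the same serum-containing medium, and RNA was taken 6 h after treatment. The series design text speaks of exosomes from shock wave treatment instead, and the labels leave unsettled which was given. No genotype or added agent separates the groups in the labels, and nothing in them says that the replicates were separate cultures, so p-values speak for the variation among these 4 samples, possibly technical, and no more.

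Pro-survival proteins of the family sit on the outer mitochondrial membrane and hold the death-promoting members in check. BAK1 and its relative BAX are the pore formers that, once released, let cytochrome c out of the mitochondrion and start the caspase cascade. The remaining death-promoting members carry a short helix, the BH3 domain, with which they occupy the groove of the pro-survival proteins or activate the pore formers. In neurons and neuroblastoma cells BCL2, BCL2L1 and MCL1 are the guardians most often studied. Much of the family's control lies in protein turnover, phosphorylation and cleavage, which RNA counts do not show.

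Library totals ran from 9888263 to 11686808 counts, and 12399 genes passed the filter on low counts, 8 of the 10 members among them. The label as SH-SY5Y was checked against markers. Of 11 noradrenergic neuroblastoma genes, 2 reached 10 CPM (normalised counts relative to library size) in every library, and PHOX2A, TH, DBH, CHGA and MYCN had 0 counts in all 4, with a summed level of 73.9 to 82.4 CPM, while 7 of 7 mesenchymal genes reached 10 CPM. The cells are therefore called by their label only. Over 26 heart muscle genes the sums were 13.9 and 431.9 CPM in control replicates 1 and 2. In SWT replicates 1 and 2 they were 52.6 and 16.6 CPM. Control replicate 2 stood far apart, and SWT replicate 1 was the higher SWT library. The difference between SWT and control also followed GC content across genes (Spearman rho -0.404, with genes that are not independent replicates), as did the difference between the controls (-0.485, replicate 2 minus 1) and between the SWT libraries (0.381). Endothelial markers summed to 2.15 to 6.17 CPM, glial markers to 2.18 to 4.15 CPM and leukocyte markers to at most 0.809 CPM.

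The first question was which members these cells transcribe at all. MCL1 (chromosome 1, 150574551 to 150579738), encoding a short-lived guardian that holds BAK1 and BIM, had the most counts of the family, with 4813 and 4350 in control replicates 1 and 2 and 4760 and 5219 in SWT replicates 1 and 2. Its level was 443.8 ± 23.8 CPM (SD, n = 4). BCL2L1 (chromosome 20, 31664452 to 31723989), whose main product BCL-xL is another guardian, followed among the pro-survival genes at 155.7 ± 8.48 CPM (SD, n = 4). BCL2L2 (chromosome 14, 23298790 to 23311759), the gene of BCL-w, stood at 48.4 ± 1.21 CPM (SD, n = 4). BCL2 itself (chromosome 18, 63123346 to 63320128), the founding member, reached 12.5 ± 1.03 CPM (SD, n = 4), from 113 to 144 counts a library.

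Among the death-promoting genes BID (chromosome 22, 17734138 to 17774770), which death receptor signalling cleaves into its active form, had the highest count, at 133.4 ± 5.48 CPM (SD, n = 4). BAD (chromosome 11, 64269830 to 64284704), which survival kinases phosphorylate and silence, stood at 51.5 ± 3.64 CPM (SD, n = 4). The pore former BAK1 (chromosome 6, 33572547 to 33580293) stood at 19.5 ± 1.70 CPM and BCL2L11 (chromosome 2, 111119378 to 111168447), the gene of BIM, at 14.7 ± 0.396 CPM (SD, n = 4 each). BIM binds every guardian of the family.

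Both members that did not pass the filter were close to silent in the table. BCL2A1 (chromosome 15, 79960889 to 79971446), a guardian best known from blood cells, had 0 and 0 counts in control and 1 and 0 in SWT. BIK (chromosome 22, 43110748 to 43129712), a death-promoting protein of the endoplasmic reticulum, had 1 and 1 counts in control and 0 and 1 in SWT. In a library with a count of 0 the level could reach 0.258 to 0.303 CPM by counting error alone, so no difference between the groups was detectable for either gene. A count near 0 is not by itself a measure of absent RNA in this table, because YWHAE, encoding a widely expressed adaptor protein that holds phosphorylated BAD, also had 0 counts in all 4 libraries.

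Levels of different genes can be compared only per length, so CPM was divided by the length of each gene's merged exons in GENCODE release 29. MCL1 came first, at 94.9 and 100.7 CPM per kb in control replicates 1 and 2 and 108.1 and 102.5 CPM per kb in SWT replicates 1 and 2. BCL2L1 came second, at 43.2 to 48.7 CPM per kb, so that MCL1 exceeded it by 2.16 times on average with no overlap between libraries. BAD and BID followed at 30.1 ± 2.13 and 30.0 ± 1.23 CPM per kb (SD, n = 4), and these neighbours overlapped. The remaining members were each separate from the next over the 4 libraries. They were BCL2L2 (11.3 to 11.9 CPM per kb), BAK1 (7.76 to 9.58), BCL2L11 (2.14 to 2.28) and BCL2 (0.972 to 1.18).

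**Figure D1:**
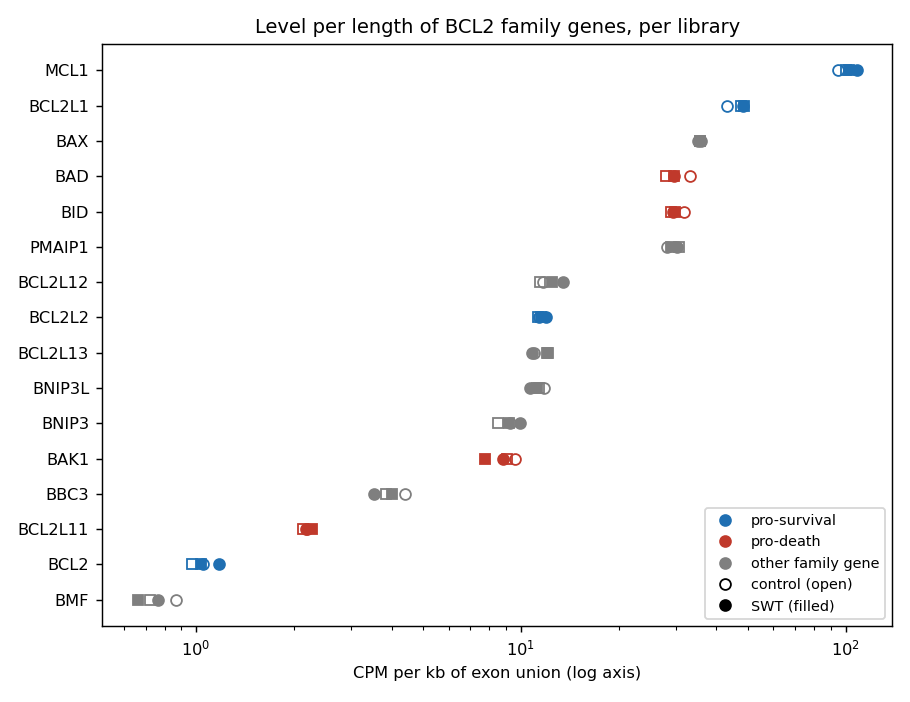
Level per length of the 16 BCL2 family genes that passed the filter, in CPM per kb of merged exons on a log axis; each point is 1 library, open for control and filled for SWT, circles for replicate 1 and squares for replicate 2. MCL1 stands apart at 94.9 to 108.1 CPM per kb, BCL2 sits at 0.972 to 1.18, and open and filled points of most genes lie close together.

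The order depended on which length was used. With the longest transcript, BID (53.5 CPM per kb) moved ahead of BAD (44.5). With the median coding transcript, which is only 914 bases for BCL2L1 and 3626 for MCL1, BCL2L1 came first at 170.4 CPM per kb and MCL1 second at 122.4, and BCL2 stayed last with each of the 3 lengths. Within the pro-survival side MCL1 made up 63.0% ± 0.531 of the summed level per length by merged exons and BCL2L1 29.2% ± 0.671, against 0.659% ± 0.0476 for BCL2 (SD, n = 4). On the death side BAD and BID held nearly equal parts, 42.3% ± 0.897 and 42.2% ± 0.603, with 12.4% ± 0.909 for BAK1 and 3.10% ± 0.169 for BCL2L11 (SD, n = 4). Gene-level counts do not separate splice forms of opposite action, such as the long and short products of BCL2L1 and MCL1.

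Some members share exon sequence with a neighbour in the annotation. The readthrough gene BCL2L2-PABPN1 covers 19.4% of the merged exons of BCL2L2 on the same strand and had 0 counts in all libraries, while BCL2L2 had 467 to 564. On the opposite strand, GPR137 covers 23.7% of BAD and had 265 to 354 counts, and MIR4435-2HG covers 10.9% of BCL2L11 and had 566 to 764. ABALON covers 43.0% of BCL2L1 from the opposite strand and had at most 1 count. The library kit was stranded, but the strand setting of the counting was not given in the sources used here. Reads from BAD and BCL2L11 can therefore not be told apart from those of these partners with certainty. How reads in shared exons were counted is not known here either. The low counts of ABALON and BCL2L2-PABPN1 thus do not show that BCL2L1 and BCL2L2 kept all their reads. The levels and ranks per length of these members carry this limit.

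The comparison of SWT with control asks whether the balance of survival and death genes differed 6 h after treatment. None of the 10 members passed edgeR's quasi-likelihood test in either direction (0 of 8 tested, also 0 at an unadjusted p under 0.05), against 0% of all 12399 genes called higher and 0% called lower, and 5.77% at an unadjusted p under 0.05. DESeq2, limma-voom and limma on the deposited log2 values called none of them either, nor did any of these 3 at an unadjusted p under 0.05. In some other settings, given below, MCL1 or BCL2L1 had an unadjusted p under 0.05 by edgeR. By value all 4 tested pro-survival members lay above 0, where 49.7% of all genes did, and 3 of the 4 tested pro-death members below 0, where 50.3% did. The median log2 fold change was 0.10 for the first side and -0.04 for the second, beside -0.00078 over all genes tested. Without control replicate 1 the pro-death median turned to 0.05 and the pro-survival median was 0.06. Without control replicate 2 the pro-death median was -0.13, and without SWT replicate 1 the pro-survival median was 0.05. The difference between the sides was not tested, since the members had been chosen with earlier results known. In bulk RNA fewer cells carrying a transcript and less transcript per cell cannot be told apart.

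**Figure D2:**
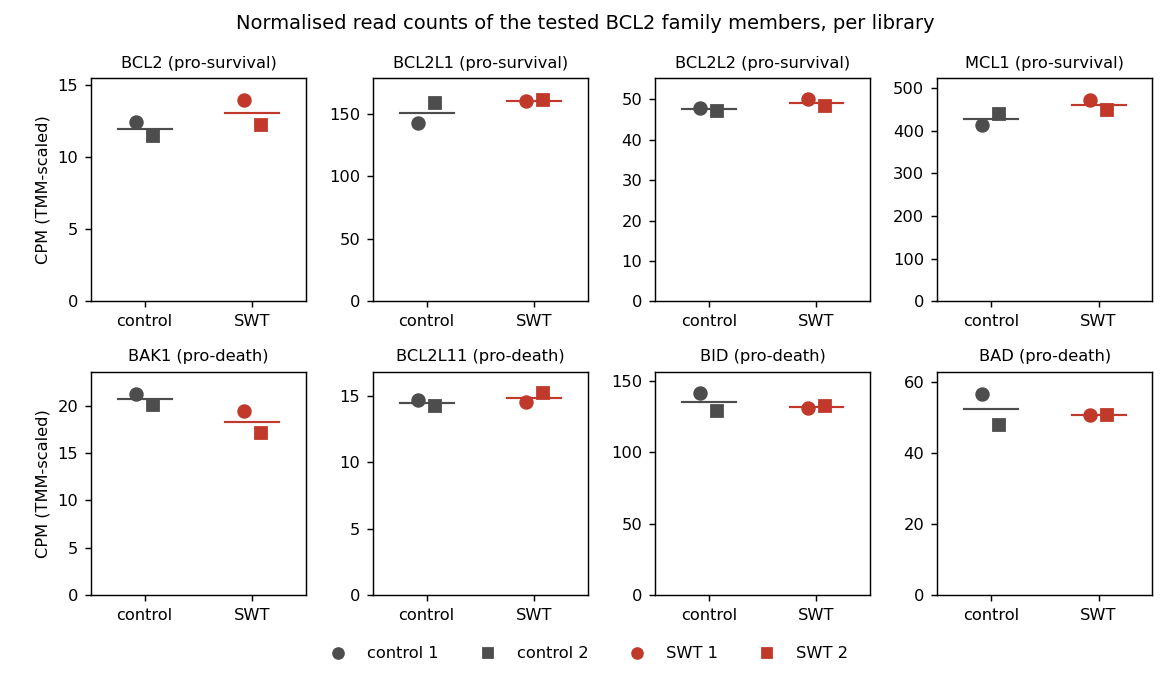
Normalised read counts (CPM, TMM-scaled library sizes, axes from 0) of the 8 tested members; each point is 1 library, and lines are the means of the 2 control and 2 SWT samples. SWT samples of MCL1 lie at 448.0 and 472.6 CPM against 414.7 and 440.0 in control, and those of BAK1 at 17.2 and 19.5 against 20.1 and 21.2.

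Of the guardians, MCL1 had the smallest p-value. It stood at 414.7 and 440.0 CPM in control replicates 1 and 2 and at 472.6 and 448.0 CPM in SWT replicates 1 and 2. Both SWT libraries lay above both controls, as for 17.3% of all genes. The log2 fold change was 0.11 (SE 0.05, 95% interval -0.01 to 0.22, adjusted p by edgeR = 0.843), so a rise beyond 1.17-fold lay outside the interval. The value was 0.07 in the absence of control replicate 1 or of SWT replicate 1, and 0.15 in the absence of either of the others.

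BCL2L1 stood at 143.1 and 158.4 CPM in control and at 160.0 and 161.3 CPM in SWT. The SWT pair lay above both controls, as for 17.3% of all genes. Control replicate 1 was the low library, and control replicate 2 lay near the SWT pair. The log2 fold change was 0.09 (SE 0.06, 95% interval -0.04 to 0.23, adjusted p by edgeR = 0.893). Leaving out control replicate 1 gave 0.02, and leaving out control replicate 2 gave 0.17.

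The remaining guardians gave small differences as well. BCL2L2 stood at 47.8 and 47.2 CPM in control and 50.0 and 48.4 CPM in SWT, with a log2 fold change of 0.05 (SE 0.07, adjusted p by edgeR = 0.955). Its SWT libraries again lay above both controls, as for 17.3% of all genes. BCL2 stood at 12.4 and 11.4 CPM in control and 13.9 and 12.2 CPM in SWT, and here SWT replicate 2 fell between the controls. Its log2 fold change was 0.12 (SE 0.14, adjusted p by edgeR = 0.932), with an interval of 0.891-fold to 1.33-fold, wider than that of the abundant guardians. The value for BCL2 ranged from 0.03 when SWT replicate 1 was left out to 0.22 when SWT replicate 2 was, and was 0.07 when control replicate 2 and 0.19 when control replicate 1 was absent. For BCL2L2 it lay between 0.03 and 0.07 over the same fits, the lowest in the absence of SWT replicate 1.

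On the death side BAK1 differed most by value. It stood at 21.2 and 20.1 CPM in control and 19.5 and 17.2 CPM in SWT, both SWT libraries below both controls, as for 18.0% of all genes. The log2 fold change was -0.18 (SE 0.12, 95% interval -0.42 to 0.06, adjusted p by edgeR = 0.886). SWT replicate 2 was the lowest library, and without it the value was -0.09.

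BID and BAD both had control replicate 1 as their highest library. BID stood at 141.2 and 128.6 CPM in control and 131.1 and 132.7 CPM in SWT, with a log2 fold change of -0.03 (SE 0.06, adjusted p by edgeR = 0.969). BAD stood at 56.5 and 47.8 CPM in control and 50.7 and 50.7 CPM in SWT, with a log2 fold change of -0.05 (SE 0.08, adjusted p by edgeR = 0.967). For these genes the SWT libraries lay between the controls, and without control replicate 1 both values turned positive, to 0.04 for BID and 0.09 for BAD. Their intervals were 0.891-fold to 1.07-fold and 0.857-fold to 1.09-fold.

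BCL2L11 was the death-promoting member that lay above 0 by value. It stood at 14.6 and 14.3 CPM in control and 14.5 and 15.2 CPM in SWT, with overlapping groups and a log2 fold change of 0.04 (SE 0.12, 95% interval -0.22 to 0.30, adjusted p by edgeR = 0.988). The interval was 0.856-fold to 1.23-fold, and the value ran from 0.0041 to 0.07 as each library was left out, lowest in the absence of SWT replicate 2.

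**Figure D3:**
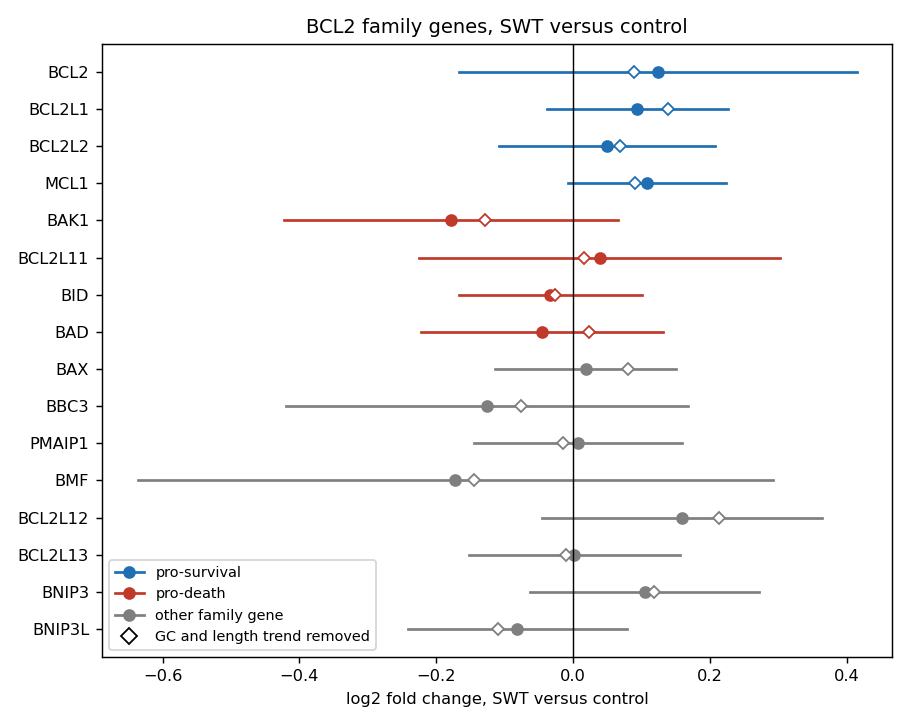
Log2 fold change of SWT versus control with its approximate 95% interval (filled points and lines) for 8 members and 8 other family genes, and the value after removal of each library's GC and length trend (open diamonds). All 16 intervals include 0; BAD moves from -0.05 to 0.02 with the trend removed.

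The spread between replicates was as large as these differences for most members. The SWT and control means differed by more than both within-group differences for 2 of the 8, MCL1 and BCL2L2, where 23.1% of all genes did so. Within the controls BAD differed by -0.24 on the log2 scale, BCL2L1 by 0.15 and BID by -0.14 (replicate 2 minus 1). The direction held without each library in turn for 6 of the 8, all but BID and BAD, where it held for 48.0% of all genes. Between the 2 libraries with few heart muscle transcripts (SWT replicate 2 minus control replicate 1), the log2 differences in CPM were 0.11 for MCL1, 0.17 for BCL2L1, 0.02 for BCL2L2 and -0.03 for BCL2 on the survival side. On the death side they were -0.30 for BAK1, -0.16 for BAD, -0.09 for BID and 0.05 for BCL2L11. Between the libraries with more of these transcripts (SWT replicate 1 minus control replicate 2), MCL1 differed by 0.10, BCL2L1 by 0.01, BCL2L2 by 0.08 and BCL2 by 0.28. In the same pair BAK1 differed by -0.05, BAD by 0.08, BID by 0.03 and BCL2L11 by 0.02. The difference of MCL1 was thus nearly equal in both pairs, while those of BCL2L1 and BAK1 came mostly from 1 pair, and BCL2, BAD and BID changed sign between them. The second pair was not matched in heart muscle transcripts, which summed to 431.9 CPM in control replicate 2 and 52.6 CPM in SWT replicate 1. Each pair has 1 library a group, so there is no test.

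**Figure D4:**
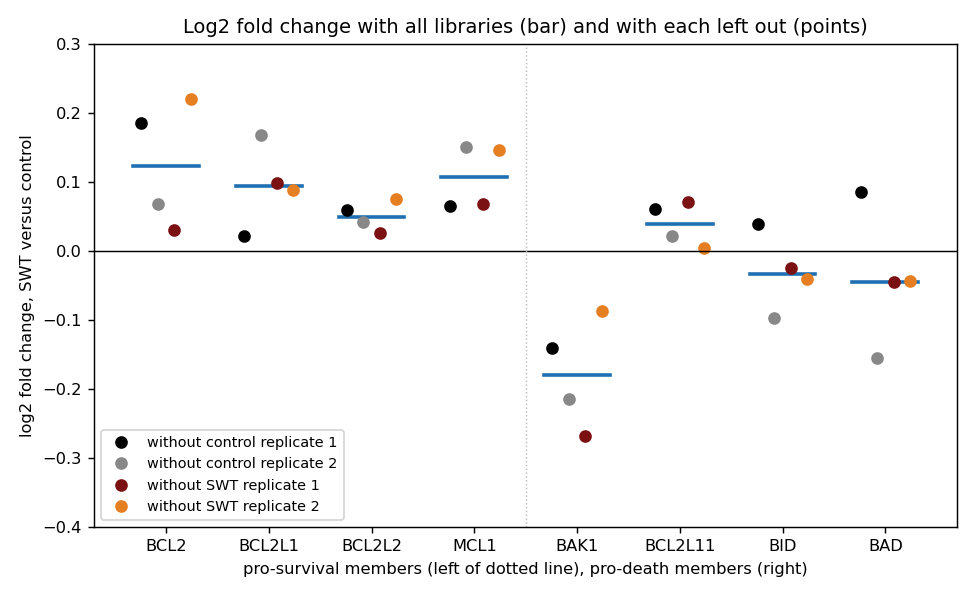
Log2 fold change of the 8 tested members with all 4 libraries (blue bars) and with each library left out (points). BCL2L1 drops to 0.02 without control replicate 1, and the points of BID and BAD lie on both sides of 0.

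GC content differs among the members and moved with the group difference over all genes. It was 45.1% for the longest transcript of MCL1, 45.6% for BCL2 and 45.7% for BCL2L11, against 66.3% for BAD, 58.8% for BAK1 and 56.9% for BCL2L1. With each library's trend with GC content and transcript length removed, edgeR gave log2 fold changes of 0.14 for BCL2L1, 0.09 for MCL1, 0.09 for BCL2 and 0.07 for BCL2L2. On the death side the values were -0.13 for BAK1, -0.03 for BID, 0.02 for BCL2L11 and 0.02 for BAD, which thereby changed sign. In that fit MCL1 and BCL2L1 had unadjusted p-values under 0.05, as 6.57% of all genes did, and neither passed after adjustment.

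The summed level per length gives a single balance of the sides in each library. Pro-survival members summed to 150.5 and 160.7 CPM per kb in control replicates 1 and 2 and 169.6 and 163.8 CPM per kb in SWT replicates 1 and 2. Pro-death members summed to 76.7 and 68.3 CPM per kb in control and 70.2 and 69.7 CPM per kb in SWT. The ratio was 1.96 and 2.354 in control and 2.42 and 2.350 in SWT, so the groups overlapped. Control replicate 1 alone was low.

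The mean ratio was 2.16 ± 0.277 in control and 2.38 ± 0.0475 in SWT (SD, n = 2 each), and the mean log2 ratio was higher in SWT by 0.15. Without control replicate 1 the difference was 0.02, and without control replicate 2 it was 0.28. Without MCL1 and BAD, the most abundant gene of each side, the ratio was 1.28 and 1.49 in control and 1.52 and 1.53 in SWT. With BAX, BBC3, PMAIP1, BMF, BOK, HRK and BCL2L10 added to their sides it was 1.03 and 1.15 in control and 1.21 and 1.18 in SWT, BAX and PMAIP1 being the largest additions at 35.6 and 29.6 CPM per kb. With members weighted equally, as the ratio of the geometric means of CPM + 1 of the sides, it was 1.66 and 1.80 in control and 1.97 and 1.85 in SWT. In these 3 versions the groups no longer overlapped, but the gap from control replicate 2 to the nearest SWT library was smaller than that between the controls. No test was attached to the ratio.

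**Figure D5:**
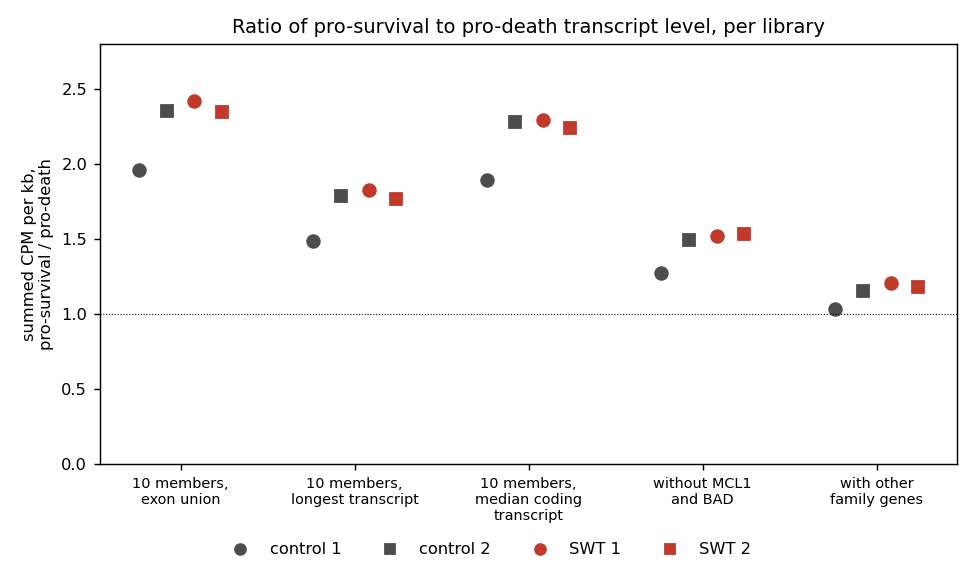
Ratio of the summed level per length (CPM per kb) of pro-survival to pro-death genes in each of the 4 libraries, for 3 choices of length and 2 other choices of genes; the dotted line marks a ratio of 1. Control replicate 1 is the lowest library under each of these choices, at 1.96 for the 10 members by merged exons, while the other libraries lie at 2.350 to 2.42.

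The other BCL2 family genes, from a list of 12, did not pass the test either (0 of 8 tested higher, 0 lower, 0 at an unadjusted p under 0.05), with 5 above 0 and 3 below and a median log2 fold change of 0.0043. That median turned to -0.02 when control replicate 1 or SWT replicate 2 was dropped and to -0.0070 when SWT replicate 1 was, and was 0.04 when control replicate 2 was. BAX, the second pore former, stood at 91.1 and 91.9 CPM in control and 92.8 and 92.5 CPM in SWT, a log2 fold change of 0.02 (SE 0.06, adjusted p by edgeR = 0.989). BAX had 35.6 ± 0.293 CPM per kb (SD, n = 4), more than BAK1, its partner in pore formation, at 8.81 ± 0.770. The stress-induced BH3 genes PMAIP1 (NOXA, which binds MCL1) and BBC3 (PUMA) stood at 66.1 ± 2.63 and 12.6 ± 1.14 CPM (SD, n = 4), with log2 fold changes of 0.01 and -0.13. BBC3 had 14.0 and 12.2 CPM in control and 11.2 and 12.8 CPM in SWT, so its groups overlapped. Its value shrank to -0.02 when control replicate 1 was dropped and to -0.04 when SWT replicate 1 was, and was -0.21 and -0.23 with control replicate 2 or SWT replicate 2 dropped instead. PMAIP1 changed sign, from -0.05 without control replicate 1 to 0.07 without control replicate 2.

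BMF, a BH3 gene tied to cytoskeletal stress, was the scarcest tested family gene at 4.11 ± 0.476 CPM (SD, n = 4), with a log2 fold change of -0.17 (SE 0.22). Its value was -0.03 with control replicate 1 dropped and -0.06 with SWT replicate 2 dropped, against -0.27 and -0.29 when SWT replicate 1 or control replicate 2 was. BCL2L12 and BCL2L13, distant relatives, stood at 0.16 (SE 0.10) and 0.0017 (SE 0.07). The exons of BCL2L12 overlap those of IRF3 on the opposite strand over 33.1% of their length, so its counts are uncertain. The mitophagy receptor genes BNIP3 and BNIP3L stood at 0.10 (SE 0.08) and -0.08 (SE 0.08). With 1 library left out BCL2L12 ranged from 0.10 (SWT replicate 1) to 0.22 (SWT replicate 2), and BCL2L13 from -0.09 (SWT replicate 2) to 0.08 (SWT replicate 1). BNIP3 was 0.05 without control replicate 2 or SWT replicate 1 and 0.17 or 0.16 without the others, and BNIP3L ranged from -0.12 to -0.05. HRK and BCL2L14 had 0 counts in all libraries, BOK had 1 count in control replicate 2 alone, and BCL2L10 had 0 and 0 counts in control and 2 and 2 in SWT, too few for a comparison.

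Genes that act around the family were read from 6 further lists, and none of their members passed the test over all genes. Adding the other family genes, 58 of 68 listed genes were tested, and 1 had an unadjusted p under 0.05, as 5.77% of all genes did. Of the 58, 35 lay above 0 and 23 below, where 49.7% of all genes lay above 0. Their median was 0.02, beside -0.00078 over all genes tested. It was -0.01 without control replicate 1 and 0.0024 without SWT replicate 1. These lists too were chosen with earlier results known, and their directions were not tested. The gene with an unadjusted p under 0.05 was XIAP, which blocks caspases after the mitochondrion has been breached. XIAP stood at 44.3 and 42.1 CPM in control and 50.5 and 48.5 CPM in SWT. Both SWT libraries lay above both controls, as for 17.3% of all genes. The log2 fold change was 0.19 (SE 0.08, unadjusted p = 0.0216 and adjusted p = 0.838 in edgeR). With the GC and length trend removed XIAP was at 0.14 (unadjusted p by edgeR = 0.0542). With 1 library left out it ranged from 0.16 (control replicate 2) to 0.23 (control replicate 1). All 5 tested inhibitors of apoptosis lay above 0, where 49.7% of all genes did, with a median of 0.11, or 0.04 without control replicate 1. BIRC6, a large ubiquitin ligase of this group, stood at 166.6 and 133.6 CPM in control and 165.1 and 170.9 CPM in SWT, with a log2 fold change of 0.16. It passed the edgeR test without control replicate 1, at 0.33 (adjusted p = 9.57e-05), in a fit that called 0.477% of all genes higher and 0.501% lower, and stood at 0.01 without control replicate 2. With the GC and length trend removed it was 0.09.

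Of 8 caspase and apoptosome genes 7 lay below 0, where 50.3% of all genes did, with a median of -0.07. The median was -0.02 when SWT replicate 2 was dropped, -0.05 for control replicate 2 and -0.12 for control replicate 1. CASP9, the initiator caspase activated on the apoptosome, stood at 14.7 and 16.4 CPM in control and 11.2 and 14.2 CPM in SWT, a log2 fold change of -0.28 (SE 0.14, adjusted p by edgeR = 0.843). Leaving out SWT replicate 1 gave -0.13, and leaving out SWT replicate 2 gave -0.47.

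The mitochondrial pore and released factors had 6 of 8 above 0, where 49.7% of all genes were, and a median of 0.05. This median turned to -0.0062 without control replicate 1 and was 0.02 without SWT replicate 1 and 0.08 without control replicate 2. The channel gene VDAC1 stood at 0.07 (SE 0.06) and HTRA2, a released protease, at -0.10 (SE 0.08). VDAC1 moved to 0.02 without control replicate 1 and to 0.12 without control replicate 2. HTRA2 was -0.05 with the GC and length trend removed.

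Death receptors and adaptors had 4 of 7 tested genes above 0 and a median of 0.02. The median turned to -0.02 when control replicate 1 was dropped and to -0.0023 when SWT replicate 2 was, and was 0.05 and 0.06 with control replicate 2 or SWT replicate 1 dropped. TRADD, an adaptor of the tumour necrosis factor receptor, stood at -0.27 (SE 0.14) and was -0.15 without control replicate 1. CFLAR, which blocks caspase activation at the receptor, stood at 0.12 (SE 0.07) and moved to 0.04 without control replicate 1 and to 0.21 without control replicate 2.

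Genes for turnover of MCL1 and BIM and for transcription of the family had 5 of 9 above 0 and a median of 0.0011, which became 0.06 and -0.08 when control replicates 1 and 2 were dropped in turn, and 0.0039 and -0.0081 when SWT replicates 1 and 2 were. USP9X, which removes ubiquitin from MCL1, stood at 0.06 (SE 0.06) with overlapping groups, or at 0.13 and -0.0067 when control replicates 1 and 2 were dropped in turn. HUWE1, a ubiquitin ligase for MCL1 named after its values were seen, stood at 0.04 (SE 0.09), passed without control replicate 1 at 0.27 (adjusted p by edgeR = 1.29e-04) and was -0.15 without control replicate 2. Binding partners had 9 of 13 above 0, where 49.7% of all genes were, and a median of 0.02. This median turned to -0.0091 without control replicate 1 and was 0.03 without control replicate 2. The adaptor gene YWHAH stood at 0.11 (SE 0.06), or 0.07 in the absence of SWT replicate 1. DYNLL2, a dynein light chain that tethers BMF, stood at 0.09 (SE 0.07). For both genes the SWT libraries lay above the controls without overlap, as for 17.3% of all genes.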

How the data were processed

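The authors deposited raw counts per gene symbol for 4 libraries, and a second table of log2 values for 17151 genes whose transform is not given in the sources used here. Trimmomatic 0.36, FastQC 0.11.5, STAR 2.5.3a, HTSeq, DESeq2 and the build hg38 are named without a role, per the submitters' processing notes. Here counts were tested with edgeR 4.0.16 (R 4.3.3): TMM factors (0.997 to 1.004), filterByExpr, the quasi-likelihood test and Benjamini-Hochberg adjustment over 12399 genes at 0.05. The coefficient of variation from edgeR's common dispersion was 4.32%, over samples whose variation may be technical. Standard errors were derived from the F statistic and the fitted log2 fold change, so the intervals are approximate. CPM used TMM-scaled library sizes. Lengths, GC content (known for 97.5% of tested genes) and positions came from GENCODE release 29 on GRCh38, the assembly of hg38. Alternatives used DESeq2 1.42.0 and limma 3.58.1. The fit was tested on simulated data. Members, lists and tests were chosen with earlier results of these data known. All 10 members and the detected genes of the other-family list are named. From each further list, members past the threshold or else the 2 with the smallest p-values are named, apart from some that are not reported here. A replicate pairing was added after seeing the data.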

Additional observations from a re-analysis of the deposited data

How the results depend on the processing

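None of the 8 tested members passed the test under any of the 17 alternatives, and BCL2, BCL2L1, BCL2L2, MCL1, BAK1 and BCL2L11 kept their sign in each. With 1 library left out, BID ranged from -0.097 to 0.039 and BAD from -0.155 to 0.086, both highest in the absence of control replicate 1. BAD was 0.023 with the GC and length trend removed and 0.029 with that trend removed in the fit with the replicate block. The number of genes called over all genes tested, 0 higher and 0 lower, was 20 and 43 without a filter, 1 and 0 with the GC and length trend removed, and 2 to 106 and 15 to 97 with 1 library left out. With the replicate number as a block it was 0 and 1, and 27 and 20 with the block and the GC and length trend removed. The correlation of same-numbered deviations was -0.283, so the shared numbers gave no sign of pairing, and the crossed pairing, chosen after seeing the data, gave 55 and 42. Without a filter MCL1 had an unadjusted p under 0.05 by edgeR, where 1005 of 17737 genes did. MCL1 also did so with the crossed pairing, where 1276 of 12399 genes did. BCL2L1 did so with the block and the GC and length trend removed, where 806 of 12399 genes did. Of the wider list genes 0 passed under each alternative that kept all 4 libraries. Without control replicate 1 BIRC6 and HUWE1 were at 0.33 and 0.27. That fit has 1 control library, so its p-values hold no spread between controls. The ratio of the sides, 2.27 as the mean of 4 libraries, was 1.72 with the longest transcript, 3.02 with no length, 1.82 with members weighted equally, 1.45 without MCL1 and BAD and 1.14 with the other family genes. Rank by level per length differed for 2 members with the longest transcript and for 6 with the median coding transcript. Medians of the wider lists moved by more than the replicate spread in 25 of 144 combinations of list and setting, the main setting included. The median of the pro-survival members moved in 3 of the 17 alternatives and that of the pro-death members in 2. BCL2A1 and BIK had too few counts for a comparison, for a reason that was not tested. With 2 samples a group the interval of BAK1 reached from 0.746-fold to 1.05-fold.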
